A study of Mus musculus with 33 samples.

Results

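The opioid and endocannabinoid genes examined here are 9 named members, taken from both tables of raw counts by gene symbol: the opioid receptor genes Oprm1, Oprd1, Oprk1 and Oprl1, the cannabinoid receptor gene Cnr1, the genes of the synthetic enzymes Dagla and Napepld, and the genes of the degrading enzymes Mgll and Faah. They are 9 of the 23366 genes in each table, and all 9 passed the filter on low counts in both sexes. RNA-Seq was performed on frontal cortex of 33 C57BL/6 offspring at about 1 month of age, 16 labelled female and 17 labelled male. Dams, and after birth dams together with their pups, inhaled filtered air (6 females and 6 males), e-cigarette aerosol with nicotine at 13 to 16 mg/mL in the liquid (5 females and 6 males), or e-cigarette aerosol without nicotine (5 females and 5 males). No transgene or targeted allele is named for these mice, and all were exposed by whole-body inhalation. The paper states that only 1 pup per litter was used, and does not say whether a female and a male could share a litter. Each treatment had its own exposure chamber, and the sexes were sequenced in separate runs, so chamber cannot be told apart from treatment, nor run from sex.

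Opioid receptors and the cannabinoid receptor CB1 are coupled to inhibitory G proteins of the Gi/o class, which open inwardly rectifying potassium channels, close presynaptic calcium channels and lower cyclic AMP, and so reduce transmitter release. Opioid receptors respond to peptides cut from precursor proteins, whereas CB1 responds to lipids that neurons make on demand. One of these lipids, 2-arachidonoylglycerol, is made mainly by diacylglycerol lipase alpha (Dagla) and degraded mainly by monoacylglycerol lipase (Mgll), while the other, anandamide, can be made by N-acyl phosphatidylethanolamine phospholipase D (Napepld) and is degraded by fatty acid amide hydrolase (Faah). In cortex CB1 sits mainly on terminals of cholecystokinin interneurons and, at lower density, of excitatory neurons.

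Total counts ran from 19150562 to 27513174 per library in females (median 23583389.5) and from 17845672 to 24787955 in males (median 20907489). Levels are CPM, the counts of a gene as a share of the library total on a parts-per-million scale, with library totals scaled by TMM within a table, and changes are log2 fold changes from edgeR's quasi-likelihood test, with a call meaning that the p adjusted over all genes of the sex by the Benjamini-Hochberg procedure was below 0.01. Sex-linked transcripts went against the label of 1 library. Xist, which is made from the silenced X of females, reached 215 CPM in the library labelled male nicotine replicate 21, against 0.0402 to 0.224 CPM in the other 5 of its group, and its Y-linked genes summed to 1 count, against 2140 to 3129. It was kept under its label. The change of each member in males with nicotine against air is given with and without it, as are those of several lists and other named genes. The correlations between genes include it.

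The 4 enzyme genes had lower mean levels than air exposed controls in every exposed group, and 7 of their 16 changes against air passed the test. No change of the 5 receptor genes passed, and the difference between enzymes and receptors was not tested. The shares of all genes called were 4.29% and 12.1% in females with and without nicotine and 0% and 13.6% in males. In females, Dagla and Napepld fell with nicotine, and Dagla, Mgll and Faah fell without nicotine. In males, Dagla and Faah fell without nicotine, and no member was called with nicotine. Called changes lay between -0.35 and -0.61 on the log2 scale. All 7 calls were lost when a marker score of cortical neurons was added to the fit. That fit called only 3 and 0 of all genes in females with and without nicotine and 14 in males without. The score and the exposure can hardly be told apart. In these bulk samples, fewer cells of a type and less RNA per cell cannot be told apart.

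**Figure D1:**
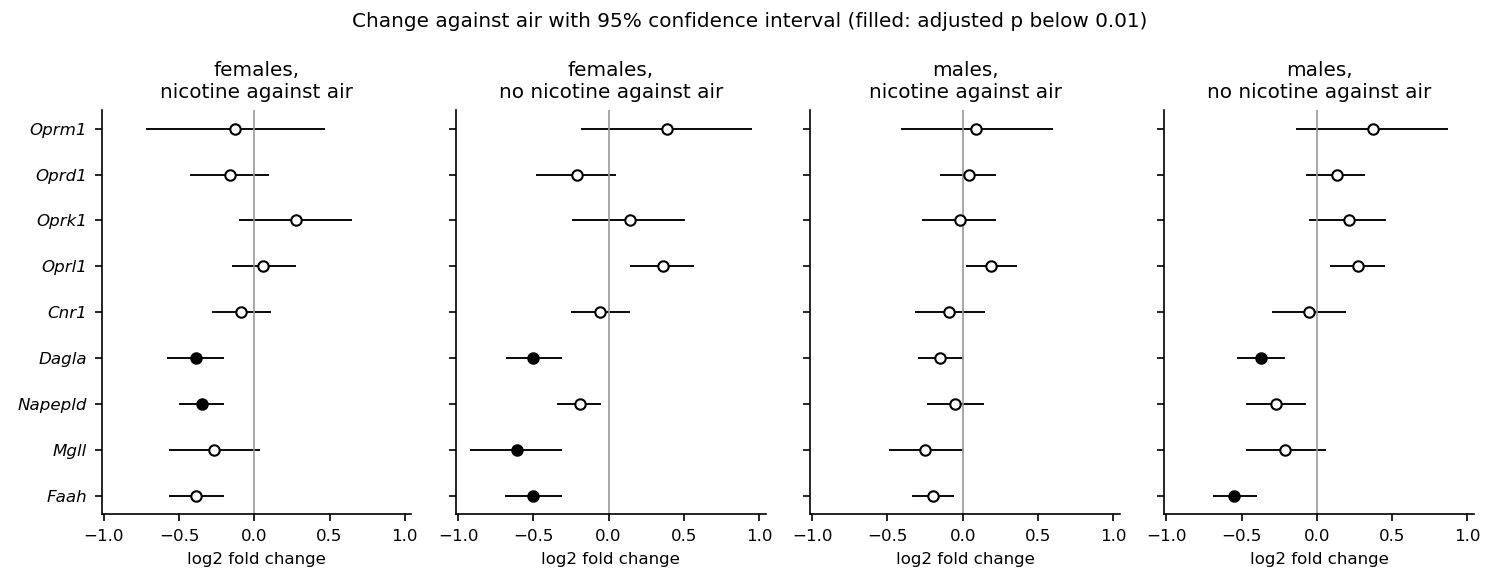
Log2 fold change against air (x axis) of each of the 9 genes (y axis) in the 4 comparisons with air, with the 95% confidence interval as a bar. Filled points have an adjusted p below 0.01 with edgeR, and all 7 of them belong to enzyme genes and lie between -0.61 and -0.35.

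Sequences before the transcription start are shown for Napepld, Mgll and Faah, the enzyme genes with a called change and an entry in the RefSeq promoter table. Entries were found for 7 of the 9 members. Each is the 250 bases before the annotated start on build GRCm38.p6, printed 5′ to 3′ on the strand of the gene, and for Mgll the start farther upstream was taken. Capitals mark any match on either strand to 1 of 6 motifs spelled out after the sequences, and no match overlapped another in these windows.
Napepld, chr5:21701623-21701872, minus strand: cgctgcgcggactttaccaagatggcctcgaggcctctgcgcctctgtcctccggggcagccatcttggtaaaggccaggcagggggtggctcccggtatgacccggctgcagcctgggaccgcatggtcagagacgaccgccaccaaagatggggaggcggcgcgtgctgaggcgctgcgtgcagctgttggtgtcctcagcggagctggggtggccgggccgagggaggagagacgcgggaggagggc
Mgll, chr6:88724162-88724411, plus strand: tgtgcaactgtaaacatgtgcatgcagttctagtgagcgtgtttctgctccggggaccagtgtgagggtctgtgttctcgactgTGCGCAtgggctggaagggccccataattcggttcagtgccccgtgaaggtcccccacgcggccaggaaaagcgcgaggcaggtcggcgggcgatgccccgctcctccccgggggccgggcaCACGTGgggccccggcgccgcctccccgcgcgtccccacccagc
Faah, chr4:116017925-116018174, minus strand: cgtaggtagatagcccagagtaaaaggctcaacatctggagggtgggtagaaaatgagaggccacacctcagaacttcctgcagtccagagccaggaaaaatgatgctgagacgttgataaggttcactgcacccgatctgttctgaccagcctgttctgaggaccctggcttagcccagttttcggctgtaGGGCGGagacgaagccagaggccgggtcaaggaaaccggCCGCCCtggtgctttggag
The Faah window held 2 matches to the GC box GGGCGG, a motif found at least once in 32.7% of 32851 promoter windows of the same length. The Mgll window held 1 match to the E box CACGTG, which 6.02% of windows hold. It also held 1 match to the core of the NRF1 site, whose letters TGCGCA occur in 6.43% of windows. The cyclic AMP response element TGACGTCA, held by 1.55% of windows, was in none of the 3 sequences. Neither was the TATA box, searched as TATAAA and present in 12.4% of windows, nor the CCAAT box, present in 33.8%. The Napepld window thus held no match to any of the 6 motifs. G and C made up 69.6%, 68% and 55.6% of the bases of Napepld, Mgll and Faah, with 21, 23 and 9 CpG pairs.

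Levels were compared between genes only per length, as RPKM, which divides the CPM of a gene by the length of its merged exons in kilobases, with exons from the GENCODE vM1 annotation of mm9. Mgll had the highest level of the 9 in air exposed females, 69.8 ± 10.4 RPKM (SD, n = 6), followed by Cnr1 at 42.2 ± 5.46, Dagla at 25.8 ± 2.24, Oprl1 at 18.3 ± 1.23 and Faah at 11.3 ± 0.942. Napepld at 4.7 ± 0.42, Oprd1 at 4.23 ± 0.813 and Oprk1 at 3.33 ± 0.947 came next, and neighbours in this order from Napepld to Oprk1 were no farther apart than the larger SD of the pair. Oprm1, the gene of the mu receptor at which morphine acts, was lowest at 0.213 ± 0.0673 RPKM, from 24 to 60 counts per library. The order was the same in air exposed males, from 65.5 ± 8.38 RPKM for Mgll to 0.234 ± 0.0403 for Oprm1. The merged exons of Faah and Oprm1 are 7834 and 8156 bases long, against 3827 and 2749 bases for their longest protein-coding transcripts. With the latter lengths, an alternative chosen after seeing the data, Faah in females moved to 23.2 ± 1.93 RPKM, beside Oprl1 at 22.4 ± 1.51, Oprk1 moved above Napepld and Oprd1 to 4.88 ± 1.39, and Oprm1 stayed lowest at 0.633 ± 0.2.

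**Figure D2:**
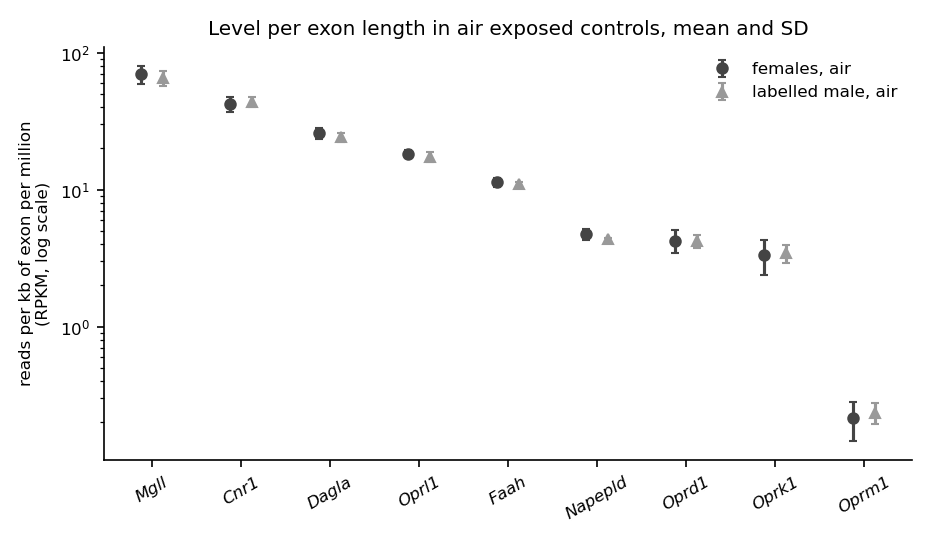
Level of each gene per length of merged exons (RPKM, y axis, log scale) in air exposed females (circles) and libraries labelled male in air (triangles), mean with SD as bars, n = 6 each. Mgll and Cnr1 are highest, and Oprm1, at 0.213 RPKM in females, lies below every other member.

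The genes lie on 7 chromosomes of mm9, and Cnr1 (chr4:34011568-34035806, plus strand), Faah (chr4:115639750-115690531, minus strand) and Oprd1 (chr4:131666641-131700401, minus strand) share chromosome 4. Mgll is at chr6:88674406-88778354 on the plus strand, Dagla at chr19:10319755-10379367 on the minus strand and Napepld at chr5:21168719-21207214 on the minus strand. Of the remaining receptor genes, Oprm1 is at chr10:3308332-3588035 (minus), Oprk1 at chr1:5578574-5596212 (plus) and Oprl1 at chr2:181449721-181455690 (plus). Counts cover exons of these protein-coding genes. Oprm1 shares 96 exon bases with Ipcef1 and Mgll 90 exon bases with the noncoding RNA Gm16628, both on the opposite strand, and the sources used here do not say whether reads were counted by strand. Of the 50-base windows of the protein-coding transcripts of Oprm1, 0.563% also occur in a protein-coding transcript of another gene. None of those of the other 8 members do. Noncoding genes such as Gm16628 were not searched.

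In the comparison of e-cigarette aerosol without nicotine and air, 3 of 9 members were lower and 0 higher in females, where 12.1% of 15158 genes tested were called (7.03% lower and 5.03% higher). In males 2 of 9 were lower and 0 higher, where 13.6% of 15293 genes were called (7.47% lower and 6.15% higher). With nicotine, 2 of 9 were lower and 0 higher in females, where 4.29% of genes were called (2.32% lower and 1.98% higher). In males with nicotine 0 of 9 members and 0% of genes were called by edgeR, although 2203 genes (14.4%), Oprl1 and Faah among them, had an unadjusted p below 0.05. DESeq2 called 159 genes there, limma-voom with sample quality weights (weighted limma-voom) 0, and neither called a member. Without the library labelled replicate 21, edgeR called 0 genes, DESeq2 108, and 1995 genes (13.1%) had an unadjusted p below 0.05. The median log2 fold change of the 9 members was -0.19 and -0.05 without nicotine in females and males, and -0.16 and -0.05 with nicotine, where the medians of all genes tested were 0.01, 0.02, 0.00 and 0.01.

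Dagla, the gene of the lipase that makes 2-arachidonoylglycerol in neurons, ran from 131 to 164 CPM (median 151) in air exposed females. It was 97.3, 109, 111, 113 and 135 CPM with nicotine and 88.2, 102, 103, 104 and 127 CPM without nicotine. All 5 female libraries without nicotine and 4 of 5 with nicotine lay below every air library. Dagla fell by 0.50 (SE 0.0887, adjusted p = 0.00133 with edgeR) without nicotine and by 0.39 (SE 0.0885, adjusted p = 0.0094) with nicotine. The call without nicotine held when each female library was left out in turn (log2 fold changes of -0.58 to -0.44). The call with nicotine held only without air replicate 1, nicotine replicate 3 or no nicotine replicate 1 or 2 and was lost without any of the other 12 libraries, with adjusted p up to 0.0301. It was also lost with upper quartile scaling (adjusted p = 0.0126), no filter on low counts (0.0102) and a stricter filter (0.0104), and was kept by DESeq2 (0.000881) and weighted limma-voom (0.00264).

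In males, Dagla ran from 127 to 156 CPM (median 138) in air and from 114 to 139 CPM (median 123) with nicotine, and was 94.5, 95.9, 107, 112 and 130 CPM without nicotine. In each exposed male group 4 libraries lay below every air library, and the groups overlapped. Dagla fell by 0.37 (SE 0.0762, adjusted p = 0.00185 with edgeR) without nicotine, a call that held when each library was left out in turn. With nicotine its log2 fold change was -0.15 (95% confidence interval -0.30 to 0.00, adjusted p = 0.364), and -0.13 without the library labelled replicate 21 (adjusted p = 0.492).

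Napepld, whose product releases anandamide from membrane phospholipids, ran from 16.3 to 20.2 CPM (median 19.1) in air exposed females. It was 13.3, 14.2, 14.9, 15.1 and 15.4 CPM with nicotine and 13.9, 16.3, 16.8, 16.9 and 17.2 CPM without nicotine. The nicotine group did not overlap air, while 1 library without nicotine lay below all air libraries. Napepld fell by 0.35 with nicotine (SE 0.0702, adjusted p = 0.00482 with edgeR), and its log2 fold change without nicotine was -0.19 (SE 0.0693, adjusted p = 0.0491). The call with nicotine was lost when air replicate 2, 3 or 6 or nicotine replicate 1, 2 or 6 was left out, with adjusted p of 0.0113 to 0.0193 and log2 fold changes of -0.36 to -0.32.

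In males, Napepld ran from 16.2 to 17.8 CPM (median 17.1) in air, and its SD of 3.26% of the mean was the smallest of the 9 genes over the 6 groups. It ran from 11.4 to 20.5 CPM (median 16.9) with nicotine and was 13.2, 13.8, 13.9, 14.5 and 15.2 CPM without nicotine. The nicotine group thus spread to both sides of air, whereas the group without nicotine lay wholly below it. Its log2 fold change without nicotine, -0.27 (SE 0.0955, adjusted p = 0.043 with edgeR), did not pass the threshold in the fit of all 3 groups. In a fit of only the 2 groups compared, the adjusted p was 0.00197, and without nicotine replicate 19, which had the 11.4 CPM, it was 0.00265. With nicotine it was -0.05 (adjusted p = 0.87), -0.06 without the library labelled replicate 21 (adjusted p = 0.847) and 0.04 without replicate 19 (adjusted p = 0.813).

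Mgll, whose product ends 2-arachidonoylglycerol signalling, ran from 295 to 421 CPM (median 325) in air exposed females. It was 225, 234, 258, 329 and 367 CPM with nicotine and 184, 200, 210, 214 and 303 CPM without nicotine. Only the 303 CPM of no nicotine replicate 1 reached into the air range, while with nicotine 3 of 5 libraries lay below it. Mgll fell by 0.61 without nicotine (SE 0.145, adjusted p = 0.00579 with edgeR), the largest called change of the 9 genes. That call was lost without air replicate 2, 4 or 6 or no nicotine replicate 2, 3, 4 or 5, with adjusted p of 0.012 to 0.0209 and log2 fold changes of -0.62 to -0.55. With nicotine its log2 fold change was -0.27 (95% confidence interval -0.57 to 0.04, adjusted p = 0.24).

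In males, Mgll ran from 255 to 365 CPM (median 323) in air and from 222 to 349 CPM (median 262) with nicotine, and was 219, 242, 260, 294 and 366 CPM without nicotine. All 3 groups overlapped. Its log2 fold change was -0.21 without nicotine (95% confidence interval -0.47 to 0.06, adjusted p = 0.255 with edgeR) and -0.25 with nicotine (interval -0.49 to 0.00, adjusted p = 0.355). Without the library labelled replicate 21 the latter was -0.24 (adjusted p = 0.443).

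Faah, whose product degrades anandamide, ran from 80.1 to 99.2 CPM (median 86.9) in air exposed females. It was 61.4, 63.1, 66.5, 70.3 and 77.5 CPM with nicotine and 51.2, 54.9, 62.9, 68.1 and 75.4 CPM without nicotine. Neither exposed group overlapped air. Faah fell by 0.50 without nicotine (SE 0.0897, adjusted p = 0.00133 with edgeR), in every fit that left out 1 library. With nicotine its log2 fold change of -0.39 (SE 0.0896, adjusted p = 0.0104) stayed just outside the threshold with edgeR and passed it with DESeq2 (adjusted p = 0.00114) and weighted limma-voom (adjusted p = 0.00369). In edgeR fits that left out 1 library, it passed without nicotine replicate 3 or no nicotine replicate 1 or 2 (adjusted p of 0.00428 to 0.00585).

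In males, Faah ran from 81.4 to 92.1 CPM (median 84) in air and from 67.3 to 80.6 CPM (median 74) with nicotine, and was 49.8, 56.6, 57.2, 58.2 and 71.4 CPM without nicotine. All 6 libraries with nicotine and all 5 without lay below every air library, and 4 of 5 without nicotine also lay below every nicotine library. Faah fell by 0.55 without nicotine (SE 0.0699, adjusted p = 3.71e-05 with edgeR), and the call held when each library was left out in turn (log2 fold changes of -0.63 to -0.50). With nicotine its log2 fold change was -0.20 (SE 0.0659, unadjusted p = 0.00745, adjusted p = 0.167), and -0.19 without the library labelled replicate 21 (adjusted p = 0.253), so the lower level in 6 of 6 libraries did not pass the correction. Of the 9 genes, Faah was the only one whose exposed libraries lay below all air libraries in each of the 4 comparisons. In females, 2 of 9 genes did not overlap air with nicotine and 2 without, where 6.67% and 10.7% of all genes tested did not. In males the counts were 1 and 2 of 9, where the shares of all genes were 2.05% and 12.4%.

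**Figure D3:**
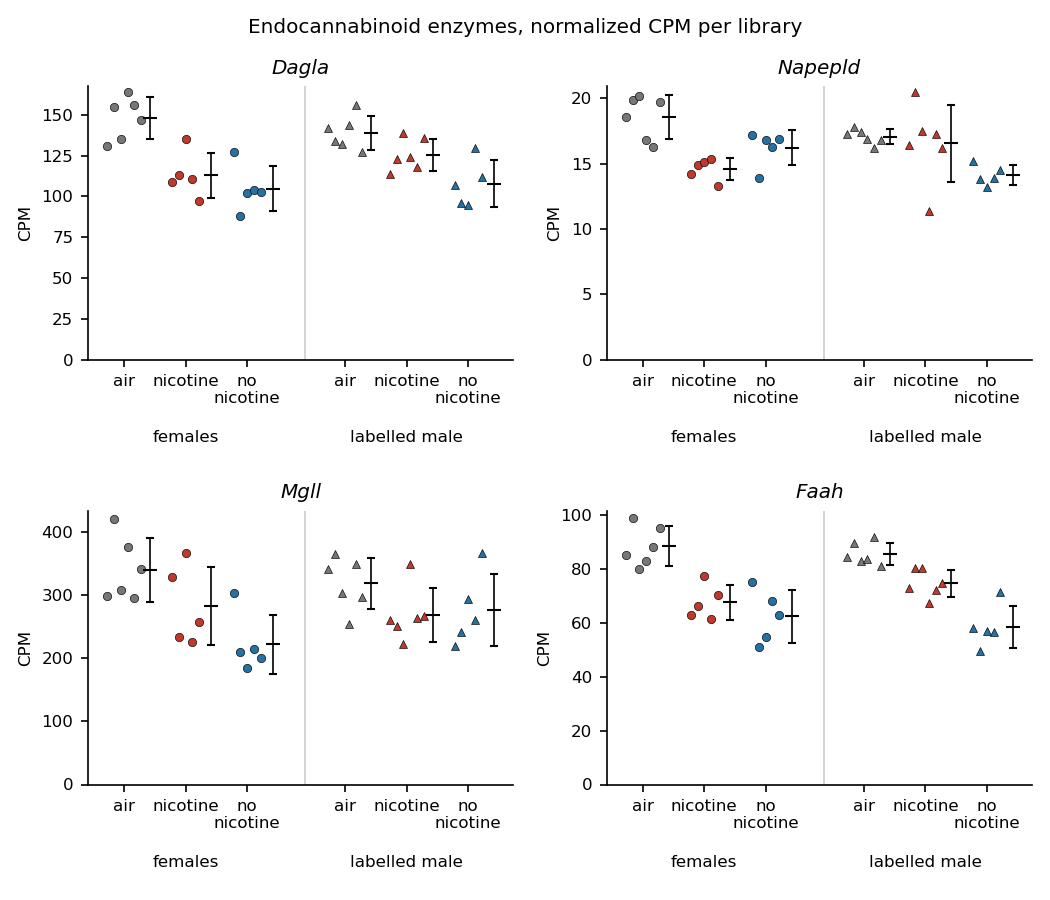
Normalized CPM (y axis) of the 4 enzyme genes in each library, by sex label and treatment (x axis); circles are females, triangles libraries labelled male, and bars give the mean with SD. For Faah, every exposed library of a sex lies below every air library of that sex.

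Cnr1, the gene of CB1, was the receptor gene with the highest level. It ran from 226 to 325 CPM (median 267) in air exposed females and was 218, 257, 263, 270 and 273 CPM with nicotine and 222, 249, 251, 283 and 306 CPM without nicotine. In males the ranges were 253 to 306 CPM in air (median 290) and 216 to 355 CPM with nicotine (median 268), with 237, 237, 266, 271 and 352 CPM without nicotine. All groups overlapped, and the log2 fold changes against air lay between -0.09 and -0.05 with adjusted p of 0.582 to 0.789 in edgeR. Their 95% confidence intervals reached from -0.28 to 0.14 in females and from -0.32 to 0.19 in males, so changes within these bounds could not be told from none. Without the library labelled replicate 21, the change of Cnr1 with nicotine in males was -0.09.

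Oprl1, the gene of the nociceptin receptor, ran from 63.2 to 76.4 CPM (median 67.6) in air exposed females. It was 59.8, 65.9, 74, 78.5 and 79.8 CPM with nicotine and 62.6, 83.3, 93.5, 96.9 and 102 CPM without nicotine. Thus 4 of 5 female libraries without nicotine lay above every air library, while no nicotine replicate 1 lay below them all. Its log2 fold change without nicotine was 0.36 (SE 0.102, adjusted p = 0.0175 with edgeR), and the adjusted p was 0.00657 with DESeq2, 0.00354 with weighted limma-voom and 0.000597 with edgeR without no nicotine replicate 1. With nicotine it was 0.06 (adjusted p = 0.735).

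In males, Oprl1 ran from 57.3 to 72.1 CPM (median 64.3) in air and from 67.5 to 83.2 CPM (median 73) with nicotine, and was 63.9, 74, 76.4, 83.4 and 96.1 CPM without nicotine. In each exposed male group 4 libraries lay above every air library. Its log2 fold change was 0.27 without nicotine (SE 0.0847, adjusted p = 0.0265 with edgeR, and 0.00481 without no nicotine replicate 5). With nicotine it was 0.19 (unadjusted p = 0.0289, adjusted p = 0.278), and 0.17 without the library labelled replicate 21 (adjusted p = 0.421). The edgeR fits of all libraries thus called Oprl1 in neither sex.

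Oprk1, the gene of the kappa receptor for dynorphins, ran from 14.7 to 33 CPM (median 20.9) in air exposed females. It was 18.8, 24.5, 30, 31.8 and 33.4 CPM with nicotine and 21.8, 22.9, 23.5, 25.8 and 31.9 CPM without nicotine. In males it ran from 19.5 to 28.4 CPM in air and from 19.1 to 32.5 CPM with nicotine, and was 23.5, 25.2, 26.8, 29.6 and 29.7 CPM without nicotine. The groups overlapped in every comparison, and the log2 fold changes against air were 0.28 and 0.14 in females and -0.02 and 0.21 in males with and without nicotine (adjusted p of 0.238 to 0.958 with edgeR). Without the library labelled replicate 21, the change with nicotine in males was 0.01.

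Oprd1, the gene of the delta receptor for enkephalins, ran from 12.9 to 21 CPM (median 16.9) in air exposed females. It was 11.6, 14.2, 15.9, 16.1 and 18.4 CPM with nicotine and 13.6, 13.7, 14.4, 15.9 and 15.9 CPM without nicotine. In males it ran from 15.1 to 20.1 CPM in air and from 15.4 to 20.7 CPM with nicotine, and was 16.1, 17.2, 17.9, 20.8 and 21.3 CPM without nicotine. The groups overlapped in every comparison. Its log2 fold changes against air were -0.16 and -0.21 in females and 0.04 and 0.13 in males with and without nicotine (adjusted p of 0.235 to 0.895 with edgeR), and with nicotine in males it was 0.07 without the library labelled replicate 21.

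Oprm1 had the fewest counts, 24 to 79 per library, and the largest standard errors. It ran from 1.07 to 2.58 CPM (median 1.57) in air exposed females and was 1.17, 1.21, 1.29, 1.89 and 2.45 CPM with nicotine and 1.24, 1.71, 2.46, 2.52 and 3.58 CPM without nicotine. In males it ran from 1.51 to 2.32 CPM in air and from 1.33 to 3.02 CPM with nicotine, and was 1.32, 1.56, 2.93, 3.18 and 3.21 CPM without nicotine. The groups overlapped in every comparison. The log2 fold changes against air were -0.13 and 0.39 in females and 0.09 and 0.37 in males with and without nicotine, with standard errors of 0.24 to 0.282 and 95% confidence intervals that reached from -0.72 to 0.95, so changes within these bounds could not be told from none. Without the library labelled replicate 21, the change with nicotine in males was 0.16.

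**Figure D4:**
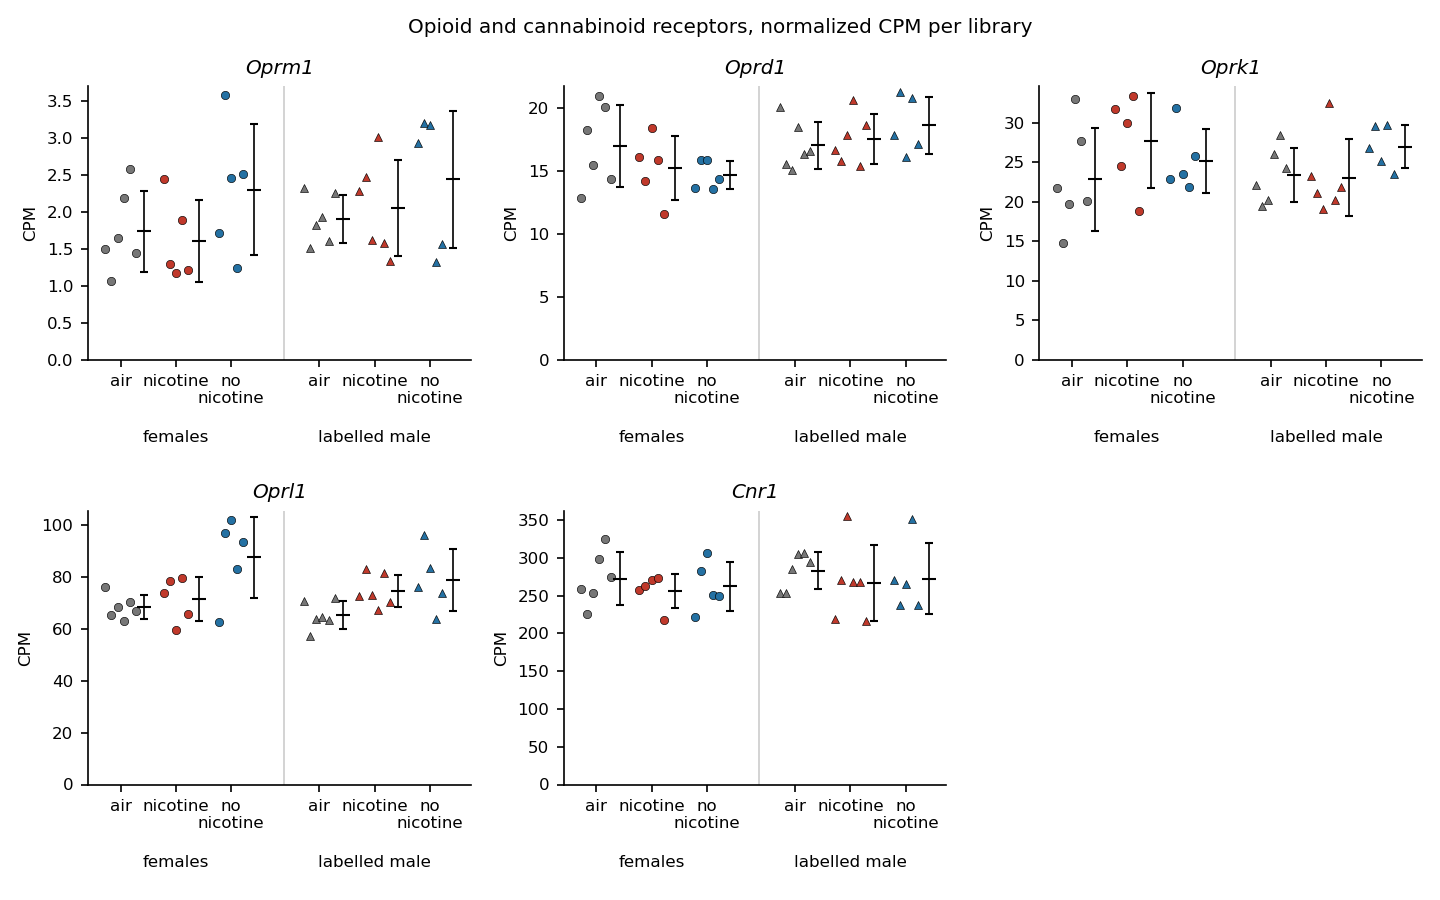
Normalized CPM (y axis) of the 5 receptor genes in each library, by sex label and treatment (x axis); circles are females, triangles libraries labelled male, and bars give the mean with SD. The exposed groups overlap air for each receptor, and Oprl1 without nicotine reaches 102 CPM in females.

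The groups with and without nicotine were compared directly. Besides nicotine they differed in chamber, and the paper reports a higher mean particulate level in the aerosol without nicotine. The part of nicotine alone can therefore not be told apart. In females, 0 of 9 members and 0% of genes were called (1266 genes, 8.35%, Oprl1 and Mgll among them, had an unadjusted p below 0.05), DESeq2 and weighted limma-voom also called 0 genes, and 1.01% of genes and 0 members did not overlap between the groups. The log2 fold changes with against without nicotine ran from -0.52 for Oprm1 to 0.35 for Mgll. In males, 0 of 9 members and 0.248% of genes were called, and 2.15% of genes and 0 members did not overlap. There 3071 genes (20.1%), Dagla, Napepld and Faah among them, had an unadjusted p below 0.05 with edgeR. The log2 fold change of Faah with against without nicotine in males was 0.35 (SE 0.07, adjusted p = 0.0156 with edgeR, 0.000256 with DESeq2 and 0.00879 with weighted limma-voom). It was 0.36 without the library labelled replicate 21 (adjusted p = 0.0274 with edgeR). In edgeR fits, Faah passed the threshold without nicotine replicate 19 (adjusted p = 0.00539) or no nicotine replicate 7 (0.000791), and Napepld passed without nicotine replicate 19 (log2 fold change of 0.32, adjusted p = 0.0076, against 0.23 and 0.188 with all libraries).

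Whether a treatment changed a gene differently in females and males was tested for 15105 genes. No member was called for either treatment, and 0% of genes were called with edgeR (978 genes, 6.47%, with nicotine and 742 genes, 4.91%, without had an unadjusted p below 0.05, and DESeq2 called 1 and 0 genes). With nicotine, Napepld had the smallest p of the members, with a female change minus male change of -0.29 (95% confidence interval -0.53 to -0.05, adjusted p = 0.714 with edgeR). Without nicotine, Oprd1 had a difference of -0.33 (interval -0.66 to -0.01, adjusted p = 0.945 with edgeR) and Mgll of -0.40 (interval -0.81 to 0.01, adjusted p = 0.945). Leaving out the library labelled male nicotine replicate 21 left the Napepld difference at -0.28 (adjusted p = 0.768). The changes called in 1 sex alone, such as Mgll without nicotine in females, are therefore not shown to differ between the sexes.

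Markers of cell types moved with the exposed groups. The summed CPM of 16 markers of cortical glutamatergic neurons, such as Slc17a7, ran from 9635 to 12602 in air exposed females, from 6341 to 9810 with nicotine and from 4832 to 9135 without nicotine. In males it ran from 8664 to 10154 in air, from 7290 to 8373 with nicotine and from 4802 to 7987 without nicotine. In females 1 of 16 markers was called lower and 1 higher with nicotine, although all 16 had an unadjusted p below 0.05, 14 had a negative log2 fold change and the median was -0.61. Without nicotine 12 were called lower and 1 higher, with a median of -0.88. In males 0 were called with nicotine, where 10 had an unadjusted p below 0.05 and the median was -0.28, and 10 were called lower and 1 higher without, with a median of -0.55. Without the library labelled replicate 21, the sum with nicotine in males ran from 7454 to 8362 CPM, and the median was -0.23. No listed marker of any cell type was at 0 in all libraries of a group.

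Markers of basal forebrain cholinergic neurons and of myelin moved the other way. All 8 cholinergic markers were called higher in both female comparisons and in males without nicotine. In males with nicotine 0 were called, but all 8 had a positive log2 fold change with an unadjusted p below 0.05, and the median was 1.02, with and without the library labelled replicate 21. Of 12 myelin markers, 11 were called higher in the former 3 comparisons and 0 in males with nicotine, where the median was 0.18 with and without that library. Summed cholinergic markers ran from 23.4 to 90.1 CPM in females in air and from 94.2 to 301 CPM in exposed females, and from 41.2 to 90.4 and from 105 to 259 CPM in males. Summed myelin markers ran from 8573 to 10302 CPM in females in air and from 11535 to 17824 CPM in exposed females, and from 9834 to 12011 and from 10066 to 24379 CPM in males. Of 14 markers of striatal projection neurons, among them Isl1, which is also a cholinergic marker, 4 and 2 were called higher in females with and without nicotine and 0 and 4 in males. All 14 had a positive log2 fold change in each of these comparisons. Their sum ran from 979 to 2392 CPM in females in air, from 2115 to 2888 CPM with nicotine and from 1831 to 2254 CPM without. In males it ran from 1338 to 2319 CPM in air, from 1479 to 2956 CPM with nicotine and from 1544 to 4544 CPM without. Each exposed group thus overlapped air. For females with nicotine, females without and males without, in that order, the markers called higher were 3, 6 and 5 of 16 for GABAergic interneurons (1, 3 and 3 lower), 1, 1 and 1 of 6 for cholecystokinin basket cells, a list that includes Cnr1 (0, 1 and 1 lower), 3, 3 and 2 of 9 for thalamus (0, 1 and 0 lower), 1, 2 and 3 of 7 tested for hypothalamus, 0, 0 and 3 of 8 for choroid plexus, whose sum was 960 CPM in male no nicotine replicate 7 and 30.2 to 52.3 CPM in the other 4 of its group, and 0, 0 and 1 of 10 for astrocytes. Summed choroid plexus markers also reached 330 CPM in air exposed females (median 18) and 290 CPM in females without nicotine (median 40). In males with nicotine, and for microglia, endothelium and olfactory bulb in every comparison with air, 0 markers were called by edgeR, and leaving out the library labelled replicate 21 left every list at 0 called in males with nicotine. That step moved the olfactory bulb median there from -0.08 to -0.66 and the highest sum from 197 to 79 CPM.

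Adding the cortical marker score of each library, its mean log2 CPM over the 16 cortical markers, as a covariate ended all 7 calls of enzyme genes. The score of each exposed library lay below all air libraries of its sex, except 1 of the 5 females with nicotine, so in this fit the marker score and the exposure can hardly be told apart. With the score, the log2 fold change of Dagla was -0.10 and -0.07 in females with and without nicotine and -0.07 in males without, and that of Mgll in females without nicotine was -0.01. Faah without nicotine went from -0.50 to -0.20 in females and from -0.55 to -0.26 in males (adjusted p = 0.791 and 0.14 with edgeR). Napepld in females with nicotine went from -0.35 to -0.30 (adjusted p = 0.193). Other signs turned: Mgll went to 0.14 in females with nicotine and 0.21 in males without, so that its lower level there was not kept, and Oprl1 without nicotine went to -0.07 in females and -0.00 in males. The same fit called 3, 0, 0 and 14 of all genes in females with and without nicotine and males with and without.

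**Figure D5:**
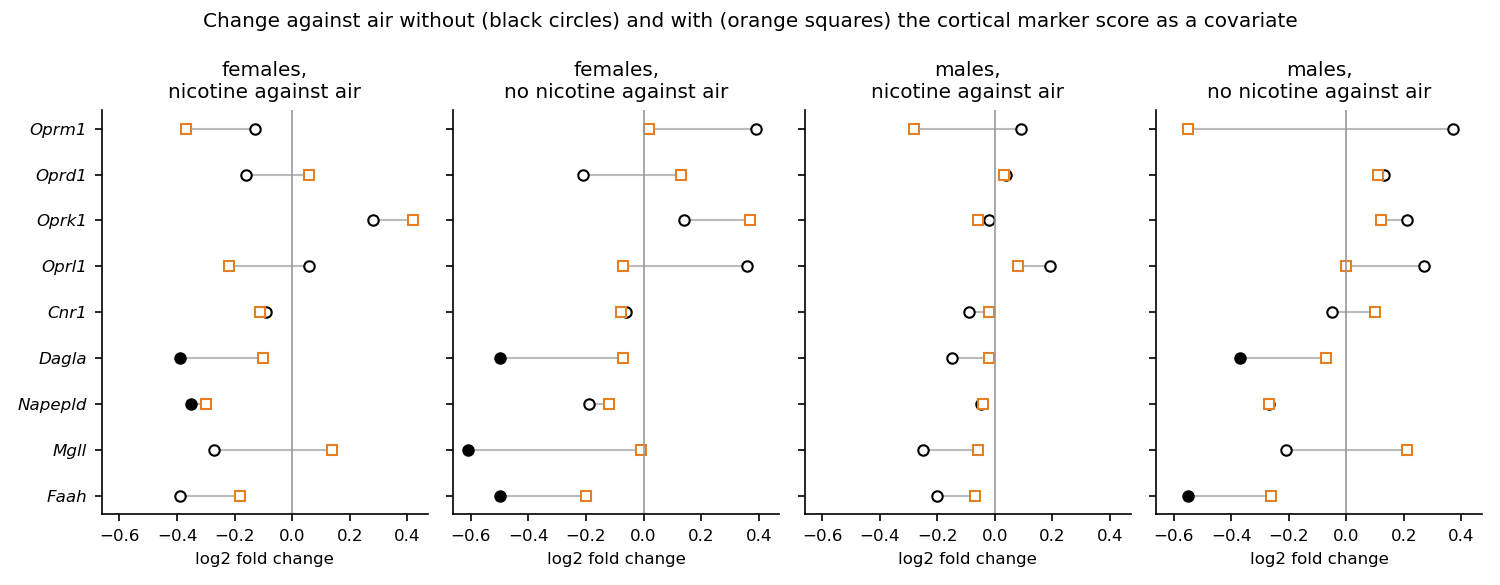
Log2 fold change against air (x axis) of each gene (y axis) without a covariate (black circles) and with the cortical marker score of the library as a covariate (orange squares), in the 4 comparisons with air. Filled symbols have an adjusted p below 0.01 with edgeR, and no orange square is filled. Dagla in females without nicotine moves from -0.50 to -0.07, and Napepld in females with nicotine from -0.35 to -0.30.

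The 4 precursor genes of opioid peptides had 1 call in each sex without nicotine and 0 with nicotine. Of all genes tested, 12.1% in females and 13.6% in males were called without nicotine, and 4.29% and 0% with nicotine. Pnoc, the nociceptin precursor, rose by 0.60 in females without nicotine (SE 0.133, adjusted p = 0.0043 with edgeR): the air libraries ran from 6.42 to 10.5 CPM and those without nicotine from 11.7 to 17.2 CPM. Pdyn, the dynorphin precursor, rose by 0.72 in males without nicotine (SE 0.186, adjusted p = 0.00863 with edgeR), where air ran from 17.3 to 33 CPM and no nicotine from 28.1 to 46.5 CPM. Penk, the enkephalin precursor, had log2 fold changes of 0.82 and 0.64 in females with and without nicotine (adjusted p = 0.0146 and 0.0278) and of 0.38 and 0.72 in males (adjusted p = 0.381 and 0.0132). Pomc, the beta-endorphin precursor, had changes between 0.18 and 0.32 with adjusted p of 0.135 to 0.622. When the library labelled replicate 21 was left out, the changes with nicotine in males were 0.47 for Penk, 0.37 for Pdyn, 0.20 for Pnoc and 0.17 for Pomc. The median change of the 14 striatal markers was 0.70 and 0.43 in females with and without nicotine and 0.36 and 0.79 in males. Leaving out the library labelled replicate 21 gave a median of 0.45 with nicotine in males. Pnoc, at -0.05 in females with nicotine, was not higher there. The part of striatal cells in these values was not tested.

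Of 10 genes of opioid peptide processing and breakdown, 1 was lower and 0 higher in females with nicotine, 1 lower and 1 higher in females without, 1 lower and 2 higher in males without, and 0 were called in males with nicotine. The shares of all genes called in either direction were 4.29% and 12.1% in females with and without nicotine and 13.6% in males without. Pcsk2, a convertase that cuts opioid precursors, fell by 0.44 and 0.66 in females with and without nicotine (adjusted p = 0.00801 and 0.000841 with edgeR) and by 0.42 in males without (adjusted p = 0.000766). Ece2, an endothelin-converting peptidase, rose by 0.66 in females and by 0.49 in males without nicotine (adjusted p = 0.000841 and 0.000418). The other gene called, named after its values were seen, was Ece1 in males without nicotine (0.19, adjusted p = 0.00827).

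Of 21 further endocannabinoid genes, 19 were tested in females and 20 in males. Abhd4, a lipase of an alternative route to anandamide, rose by 0.27 and 0.28 in females with and without nicotine (adjusted p = 0.00228 and 0.00111 with edgeR) and by 0.30 in males without (adjusted p = 0.000591). It was the only gene of the list called higher. Lower calls were 0 with nicotine in either sex and 2 without nicotine in each, where 7.03% of all genes in females and 7.47% in males were lower. Cnrip1, which encodes a protein that binds the tail of CB1, fell by 0.43 in males without nicotine (adjusted p = 0.000529). The other genes called, named after their values were seen, were Ptgs2, whose product oxidises endocannabinoids, by -0.91 in females and -0.92 in males without nicotine (adjusted p = 0.00126 and 0.00156), and Pla2g4e, an N-acyltransferase that makes the precursor lipids used by the product of Napepld, by -0.63 in females without nicotine (adjusted p = 0.00438). The median log2 fold change of the list against air lay between -0.12 and -0.03.

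Of 29 Gi/o transducers and effectors, 6 were lower and 1 higher in females with nicotine, 12 lower and 0 higher in females without, 12 lower and 2 higher in males without, and 0 were called in males with nicotine. Of all genes tested, 2.32% and 7.03% were lower in females with and without nicotine and 7.47% in males without, and the cortical markers given above were lower in the same groups, a relation whose part in these counts was not tested. The median log2 fold change of the list was -0.14 and -0.25 in females with and without nicotine and -0.12 and -0.19 in males. Without the library labelled replicate 21, the median with nicotine in males was -0.10. Kcnj6, a subunit of the potassium channels that these receptors open, fell by 0.78 and 0.92 in females with and without nicotine (adjusted p = 0.00356 and 0.000934 with edgeR) and by 0.98 in males without (adjusted p = 2.14e-05). Cacna1a, the pore subunit of P/Q-type calcium channels, fell by 0.52 in females and by 0.47 in males without nicotine (adjusted p = 0.00152 and 2.16e-05). With nicotine in males their log2 fold changes were -0.43 and -0.16 (adjusted p = 0.074 and 0.147), and -0.44 and -0.15 without the library labelled replicate 21.

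Within groups, the deviation of each member from its group mean was compared with that of 11416 genes across 16 female and 17 male libraries, which share depth, dissection and cell makeup within a library. The genes most like a member were those with the highest value of the smaller of the Pearson correlations in the 2 sexes, given as a description since they were chosen as the highest. Faah varied most like Stx1a (r = 0.92 in females and 0.90 in males) and Syn1 (0.93 and 0.89), both genes of the presynaptic release machinery or its vesicles. Dagla varied most like Lpcat4 (0.93 and 0.89) and Cobl (0.90 and 0.88), Mgll like Ezr (0.92 and 0.84) and Kcnmb4 (0.87 and 0.84), and Napepld like Bhlhe22 (0.78 and 0.77) and Ccdc3 (0.72 and 0.67). Among receptor genes, Oprl1 varied most like Pcdh11x (0.88 and 0.88) and Resp18 (0.93 and 0.88), Cnr1 like Skil (0.76 and 0.75) and Aff3 (0.73 and 0.85), and Oprk1 like Neto1 (0.84 and 0.83) and Mctp1 (0.82 and 0.80). Oprd1 varied most like Cacna2d3 (0.81 and 0.86) and Pou3f1 (0.81 and 0.78), and Oprm1 like Pcdh17 (0.82 and 0.81) and Rab27b (0.76 and 0.79). No 2 members shared a nearest gene.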

How the data were processed

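RNA-Seq was performed on frontal cortex of 33 mice. Per the labels and the study's methods, single-end reads were aligned by the authors with Bowtie to the mm9 transcriptome, duplicates were removed with SAMtools and reads were counted per gene with HTSeq. The use of strand in counting is not given in the sources used here. The deposited raw tables, 1 per sex, hold whole read counts per gene, with 1 column of the female table that matched no labelled sample and was not used. The authors also deposited normalized tables, read as signal, whose values are these counts divided by 1 factor per library and were used only to check that relation.

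Genes with a summed CPM of at least 5 within a sex were tested with edgeR 4.0.16 (R 4.3.3) using TMM scaling, a quasi-likelihood fit of the 3 groups and Benjamini-Hochberg adjustment over all genes, with a threshold of 0.01. Differences between sexes were an interaction in 1 fit of all libraries. Scripts were tested on simulated data. Alternatives used DESeq2 1.42.0, limma-voom with sample quality weights (limma 3.58.1), other filters and scalings, the cortical marker score, a replicate block and each library left out. The members and lists were chosen with earlier results of these data known. Named genes were the 9 members, the 2 genes most like each (mean of at least 5 CPM), the opioid precursors and, of each other list, the 2 called genes with the smallest p. The paper states that 1 pup per litter was used, and replicate libraries differed by more than sampling noise. P-values measure the spread between these litters.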

Additional observations from a re-analysis of the deposited data

Results flagged for a closer look

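In 5 of the 54 sets of 5 or 6 libraries (9 genes in 6 groups), the highest or lowest library stood apart from the others by Dixon's criterion, where chance alone gives about 1 in 20. Cnr1 in female nicotine replicate 6 was 218 CPM, where the nearest other library of its group had 257 CPM. Napepld in female no nicotine replicate 2 was 13.9 CPM, with the nearest at 16.3 CPM. Mgll in female no nicotine replicate 1 was 303 CPM, with the nearest at 214 CPM, and without that library its log2 fold change against air was -0.76 (adjusted p = 0.000555 with edgeR). Male nicotine replicate 19 had the highest Oprk1 of its group, 32.5 CPM against 23.3 CPM in the nearest library, and also the highest Mgll, 349 CPM against 267 CPM.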

How the results depend on the processing

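Of the 9 members, 2 were called in females with nicotine against air, where 4.29% of all genes were called. Leaving out 1 library gave 0 to 3 members. This count was 1 (Napepld) with upper quartile scaling, 1 (Napepld) with no filter on low counts and 1 (Napepld) with a stricter filter. In females without nicotine 3 were called (2 to 4 with 1 library left out), and in males without nicotine 2 (2 to 3). Of all genes, 12.1% and 13.6% were called there. With the cortical marker score as a covariate the counts were 0, 0 and 0 in these 3 comparisons, where 3, 0 and 14 of all genes were called. With the score, Oprl1 without nicotine turned from 0.36 to -0.07 in females and from 0.27 to -0.00 in males. In that fit Mgll turned to 0.14 in females with nicotine and to 0.21 in males without, Oprd1 to 0.06 and 0.13 in females with and without nicotine, Oprl1 to -0.22 in females with nicotine, Oprm1 to -0.28 and -0.55 in males with and without, and Cnr1 to 0.10 in males without. Between males with and without nicotine 0 members were called with edgeR and 1 (Faah) with DESeq2 and with limma-voom with sample quality weights, and 0 to 2 with 1 library left out. Over all genes, 651 were called in females with nicotine, 1319 with DESeq2 and 1012 with limma-voom with sample quality weights, and between males with and without nicotine 38, 456 and 59. With 1 library left out, edgeR called 226 (without nicotine replicate 2) to 930 (without nicotine replicate 3) genes in females with nicotine and 823 (without no nicotine replicate 2) to 2505 (without no nicotine replicate 1) in females without, where all libraries gave 1829. Between males with and without nicotine it called 0 (without no nicotine replicate 3 or 5) to 246 (without nicotine replicate 19), and 5 without the library labelled replicate 21. In the other comparisons (females with against without nicotine, males with nicotine against air, and both differences between the sexes) 0 members were called under every alternative run.

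In females the replicate numbers are shared between groups, and deviations of same-numbered libraries correlated from -0.43 to 0.42. Libraries with unlike numbers were not compared, so these values cannot tell whether the numbers pair the samples. With the replicate number as a block, 0 members were called with nicotine (136 of all genes) and 1, Dagla, without (736 of all genes). No paired analysis was possible in males because their groups share no replicate numbers. Causes of these shifts were not tested. Oprm1 had at most 79 counts per library, and counting error was not separated from the spread between animals. Each treatment had 1 chamber, whose part in any change cannot be told apart from the exposure.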
